A study of Mus musculus with 78 samples.

Results

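Striatal projection neurons read dopamine through a short signalling chain, and 9 genes of that chain were followed here through 7 mouse brain regions: the receptors Drd1, Drd2 and Drd3, the G-protein subunits Gnal and Gng7, the adenylyl cyclase Adcy5, the phosphodiesterase Pde10a, the G-protein regulator Rgs9 and the phosphatase inhibitor Ppp1r1b. The genes were taken by name from 55367 gene symbols that 2 deposited count tables share. The tables hold 78 libraries of poly(A) RNA, 1 per mouse and dissected region, from 12 single-housed adult C57BL6/J mice of both sexes. KO mice carried a constitutive CRISPR/Cas9 deletion of exons 3 to 7 of Acss2, whose product turns acetate, a breakdown product of alcohol, into acetyl-CoA, and the founders were backcrossed for 3 generations. WT mice lacked the deletion. The study asked how loss of ACSS2 bears on alcohol drinking, and KO and WT mice alike went through drinking in the dark with 15% (v/v) ethanol, first beside a water bottle and then, in a further week, without one. Every library therefore comes from a mouse that drank, and no library shows the level of these genes without ethanol. Being constitutive, the deletion is not limited to a cell type or to the adult brain.

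In the striatum each projection neuron carries mainly D1 or mainly D2 receptors. D1 receptors couple to the Golf alpha subunit (Gnal) with a gamma subunit (Gng7) and drive adenylyl cyclase 5 (Adcy5) to make cAMP, and D2 receptors hold that cyclase back. Phosphodiesterase 10A (Pde10a) breaks the cyclic nucleotides down, RGS9 (Rgs9) speeds the shut-off of G-protein signals at D2 receptors, and protein kinase A turns DARPP-32 (Ppp1r1b) into an inhibitor of protein phosphatase 1. The D3 receptor (Drd3) is a relative of D2 known from the ventral striatum and the islands of Calleja.

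Because Drd3 passed the test between the striatal regions and Drd1 and Drd2 did not (values further on), the sequence upstream of each receptor gene is shown, from 250 to 51 bases before the RefSeq start on GRCm38.p6. Capitals mark a GC box (GGGCGG or its complement CCGCCC). Drd1 is read from chr13:54055709-54055908 (minus), Drd2 from chr9:49340153-49340352 (plus) and Drd3 from chr16:43761971-43762170 (plus), a start that lies inside the longer annotated gene.
Drd1: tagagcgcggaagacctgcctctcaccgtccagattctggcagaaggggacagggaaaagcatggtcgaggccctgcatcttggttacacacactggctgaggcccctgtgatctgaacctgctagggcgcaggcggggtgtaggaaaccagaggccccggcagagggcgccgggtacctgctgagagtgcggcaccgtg
Drd2: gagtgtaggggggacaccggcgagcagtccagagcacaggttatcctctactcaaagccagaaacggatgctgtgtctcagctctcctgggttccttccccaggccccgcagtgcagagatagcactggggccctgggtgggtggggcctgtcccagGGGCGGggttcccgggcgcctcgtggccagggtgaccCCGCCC
Drd3: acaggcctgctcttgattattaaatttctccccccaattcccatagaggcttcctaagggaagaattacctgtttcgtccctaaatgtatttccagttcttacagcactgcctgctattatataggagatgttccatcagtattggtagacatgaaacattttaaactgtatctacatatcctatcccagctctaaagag
The Drd1 window was 63.5% G and C and the Drd2 window 67.5%, while the Drd3 window was 39.5%, below the 51.5% median of 32851 RefSeq promoter windows of the same length. The Drd2 window holds 2 GC boxes and the other windows shown none. A second RefSeq start of Drd1, whose window is not shown (chr13:54054831-54055030, minus), has 1. Windows were read for 7 of the 9 genes. Ppp1r1b had none among those used, and Gnal was not searched, as its chromosome was left out. Of the 7 genes 6 had a GC box in at least 1 window, a motif that 24.6% of all windows hold on either strand. The 7 genes had 10 windows, so the count per gene and the share per window are unlike measures. The cAMP response element half-site (TGACG or CGTCA, in 12.7% of all windows) stood in a window of 1 gene, Gng7, and the TATA box (TATAAA or TTTATA, in 9.14%) in that of 1 gene, Rgs9. No motif searched overlaps another in its letters, and a match or its absence only describes these windows.

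On GRCm38 the annotation places Drd1 on chromosome 13 (54051183 to 54055705, minus strand), Drd2 on chromosome 9 (49340627 to 49408177, plus), Drd3 on chromosome 16 (43754026 to 43822932, plus) and Adcy5 on the same chromosome (35154877 to 35305738, plus). Ppp1r1b (98348404 to 98357796, plus) and Rgs9 (109225355 to 109298129, minus) both lie on chromosome 11, Pde10a on chromosome 17 (8525372 to 8986648, plus), Gng7 on chromosome 10 (80948624 to 81014945, minus) and Gnal on chromosome 18 (67088216 to 67226792, plus). Exons of Ppp1r1b overlap the transcript 1700003D09Rik on the other strand, which reached at most 11.4 CPM (counts over the library's total, times 1000000), and exons of Gnal overlap Mppe1, which reached at most 34.8 CPM. Whether counting used strand is not given in the sources used here, so reads of these overlaps cannot be told apart.

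Libraries of both striatal regions, of amygdala and of dorsal hippocampus held between 4454420 and 14487778 counts, and those of cortex, ventral hippocampus and prefrontal cortex between 629635 and 1228828. A count of 0 therefore allows up to 0.673 CPM in the shallowest library of the deeper regions and up to 4.76 CPM in the shallowest of all (3 counts of the total, counting error only). Depth and region cannot be told apart between the deeper and the shallower set, so regions were tested within a set only. Each group of 1 region, sex and genotype held 3 mice, except 4 groups of 2 and 1 of 1 (male KO prefrontal cortex). Acss2 stood between 0.971 and 14 CPM in 40 KO libraries and between 35.9 and 73.8 CPM in 38 WT libraries, and the ranges did not overlap. Of 39 female libraries 1 had Ddx3y, a gene of the Y chromosome, above Xist; it is the prefrontal cortex library of female WT mouse 23.

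Of the 78 libraries 9 stood apart from the rest of their region in these genes, and results that rest on them are given with and without them. A striatal library was listed where at least 7 of the 9 genes stood below 0.5 times the median of the other libraries of its region, and any other library where at least 7 stood above 2 times that median. Since the values of the 9 genes themselves chose these libraries, fits without them are a description, and a call gained or lost there is not a test. Beside them stand 10 other markers of striatal projection neurons, summed, among them Penk, Tac1, Pdyn, Adora2a, Scn4b and Isl1. The dorsal striatum library of male KO mouse 10 had all 9 genes low, at a median ratio of 0.0723, and that of female WT mouse 23 had all 9 low, at 0.0555. Their summed striatal markers were 589 and 334 CPM against a median of 4532 CPM over the 12 dorsal striatum libraries, and Slc17a7, the vesicular glutamate transporter of cortical excitatory neurons, stood at 1763 and 1856 CPM against a median of 283 CPM. By their markers these libraries do not match the dorsal striatum label. In the second of them Drd2 was a single count among 5842607 (0.171 CPM) beside 63 counts of Drd1.

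In ventral striatum 3 libraries were listed: male WT mouse 13 with all 9 genes low (median ratio 0.115), male KO mouse 10 with all 9 low (0.203) and female WT mouse 11 with 7 low (0.343). The first had Tcf7l2, a marker of thalamus, at 141 CPM, and the second had Slc17a7 at 842 CPM against a regional median of 127 CPM. High Slc17a7 was not particular to it. The ventral striatum libraries of male KO mouse 2 (768 CPM) and female WT mouse 23 (507 CPM) were not listed. Outside the striatum the ventral hippocampus library of female KO mouse 6 had 8 genes above 2 times the median of the others, at a median ratio of 12.7. Its Ppp1r1b was 1079 CPM, where the other 11 libraries of that region lay between 32.9 and 65.2 CPM, and its Penk was 770 CPM against a median of 18.9 CPM. The amygdala library of the same mouse had 7 genes high (3.07), and the prefrontal cortex libraries of female KO mouse 5 (8 genes, 5.57) and male KO mouse 1 (7 genes, 3.56) were listed as well. Their summed striatal markers were 3105, 1889, 1381 and 1045 CPM. Of the 4 libraries listed outside the striatum all are KO, and of the 5 listed in it 2 are KO and 3 are WT. These are bulk samples, in which fewer cells of a type and less RNA per cell cannot be told apart. The prefrontal cortex library of female WT mouse 11 had 7 genes below 0.5 times the median of the others and was not listed, since the rule for regions outside the striatum counts only high values. The plot of the 9 genes by region circles the listed libraries.

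**Figure D1:**
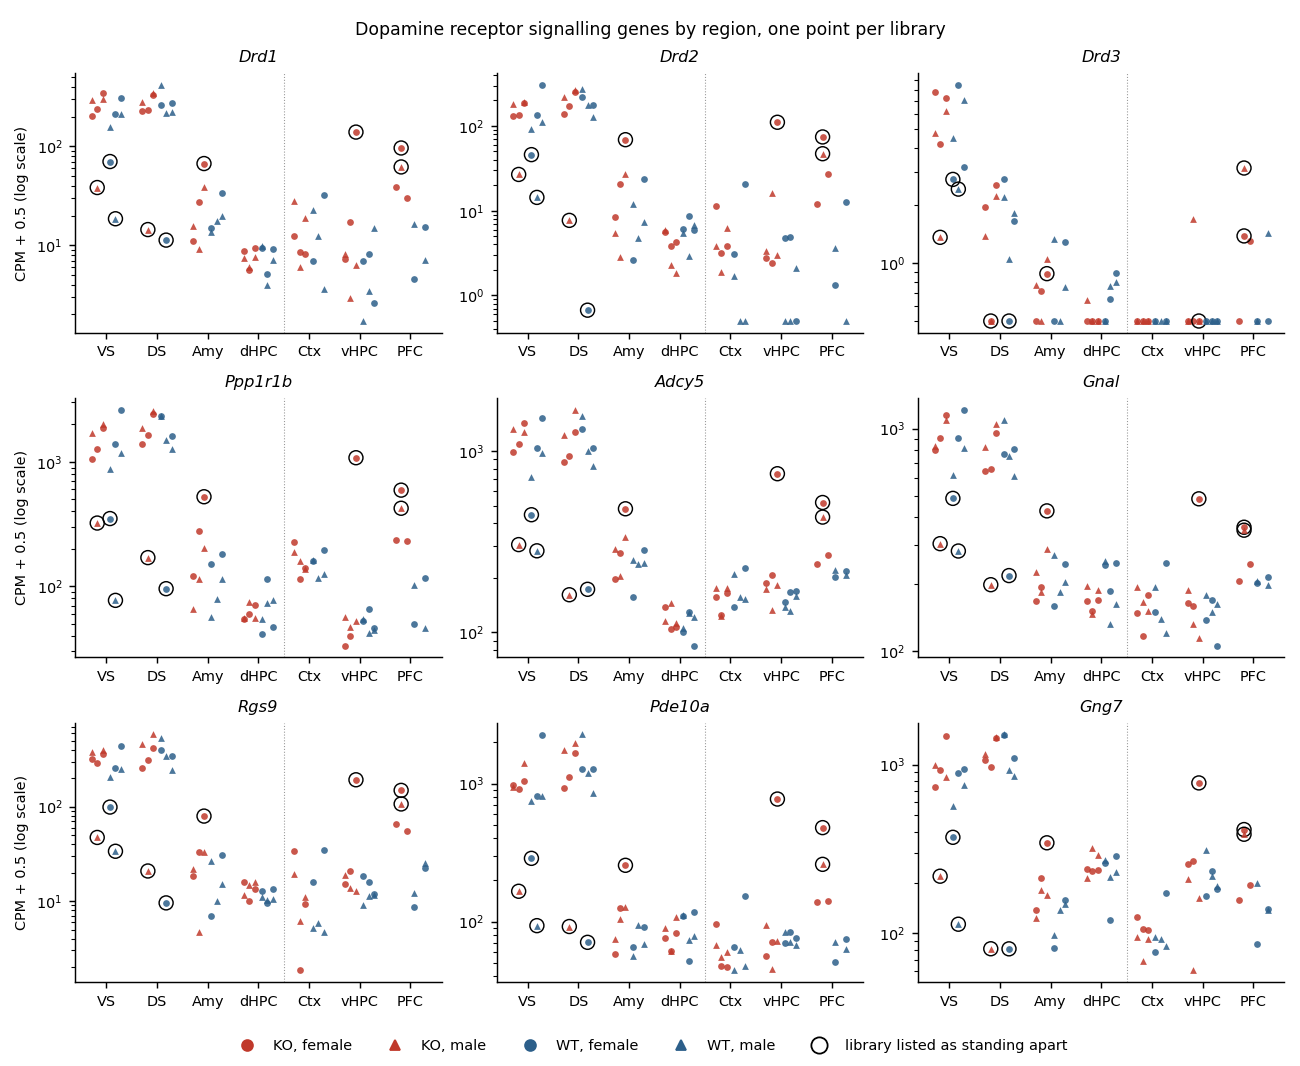
CPM plus 0.5 (log scale) of the 9 genes in each of 78 libraries, by region (VS and DS, ventral and dorsal striatum; Amy, amygdala; dHPC and vHPC, dorsal and ventral hippocampus; Ctx, cortex; PFC, prefrontal cortex), coloured by genotype and shaped by sex. Circles mark the 9 libraries that stand apart; the dotted line separates the deeper from the shallower libraries.

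Drd1 and Drd2 had their highest medians in the striatum. Drd1 had a median of 249 CPM in dorsal striatum (lowest 10.8, highest 417, n = 12) and 211 CPM in ventral striatum (18.1 to 345, n = 12). The next median was 22.6 CPM in prefrontal cortex (4.08 to 95.9, n = 8), followed by 17.1 in amygdala (8.64 to 66.6, n = 11), 11.8 in cortex (3.14 to 31.7, n = 11), 6.95 in dorsal hippocampus (3.45 to 9.44, n = 12) and 6.61 in ventral hippocampus (1.21 to 139, n = 12). Drd2 followed the same order down to the amygdala, with medians of 176 CPM in dorsal striatum (0.171 to 270), 131 in ventral striatum (13.9 to 303), 11.9 in prefrontal cortex (0 to 73.7) and 7.91 in amygdala (2.14 to 68.4). It then stood at 5.04 CPM in dorsal hippocampus (1.35 to 8.06), 2.70 in cortex (0 to 20) and 2.38 in ventral hippocampus (0 to 110), and the last 2 medians lie under the limit that a count of 0 allows in the shallowest libraries. These medians pool both genotypes. In prefrontal cortex Drd1 had a median of 49.8 CPM in KO and 10.6 CPM in WT libraries, and Drd2 36.7 and 2.00 CPM. With the listed libraries in, the ranges of neighbouring regions overlap at every step of the order above for both genes. Without them, Drd1 in the striatum was 219 CPM or more in dorsal (n = 10) and 155 CPM or more in ventral striatum (n = 9), above the highest unlisted library of the other regions, at 38.1 CPM in amygdala. The listing rule itself widens this gap, since Drd1 counted toward it when low in the striatum and when high elsewhere. It is given as a description only.

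Drd3 was the scarcest of the 9, and it and Gnal were the genes with their highest median in ventral striatum. It had a median of 4.14 CPM there (0.865 to 7.99, n = 12) and 1.25 CPM in dorsal striatum (0 to 2.26, with 3 of 12 libraries at 0). In counts this is 5 to 44 reads per ventral and 0 to 14 per dorsal library. Amygdala had a median of 0.252 CPM with 4 of 11 libraries at 0, and dorsal hippocampus had 7 of 12 at 0. All 11 cortex libraries and 11 of 12 ventral hippocampus libraries had no Drd3 read among totals of 9495312 and 11218967 counts over the libraries of each region.

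Gnal and Gng7 are the G-protein subunits of the chain. Gnal had medians of 824 CPM in ventral striatum (281 to 1216) and 760 in dorsal striatum (198 to 1090), and between 151 CPM (cortex) and 211 CPM (prefrontal cortex) in the other 5 regions, so that its highest median was 5.45 times its lowest. Gng7 was at 1076 CPM in dorsal (80.6 to 1511) and 800 CPM in ventral striatum (113 to 1483), 11.4 times the lowest region at most. Its next medians were those of dorsal hippocampus (238 CPM, 120 to 322) and ventral hippocampus (214 CPM, 60 to 779), and its lowest that of cortex (94.7 CPM, 68.4 to 173). The same ratio of highest to lowest median was 37.6 for Drd1, 74.0 for Drd2, 39.2 for Rgs9, 32.9 for Ppp1r1b, 20.7 for Pde10a and 9.09 for Adcy5. These ratios set the deeper regions against the shallower ones for 7 of the 8 genes that have one, Adcy5 being the exception, and are given without a test.

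Adcy5, the main cyclase of the striatum, had nearly equal medians in dorsal (1027 CPM, 161 to 1695) and ventral striatum (1017 CPM, 281 to 1530) and 249 CPM in amygdala (156 to 480). Pde10a had medians of 1226 CPM in dorsal (70.2 to 2272) and 858 CPM in ventral striatum (92.8 to 2254), and between 59.3 and 106 CPM elsewhere. Rgs9 stood at 345 CPM in dorsal (9.07 to 583) and 271 CPM in ventral striatum (33.2 to 439), with a third-ranked median of 39.5 CPM in prefrontal cortex (8.16 to 148). Ppp1r1b was the most abundant of the 9 per length: per kilobase of exon its median was 556 CPM in dorsal and 419 CPM in ventral striatum, against 284 and 211 for Gng7, 143 and 142 for Adcy5 and 95.4 and 66.8 for Pde10a. On that scale the D1 and D2 receptor messages were alike in dorsal striatum, at 68.5 and 69.1 CPM per kilobase, and Gnal was at 68.1, Rgs9 at 54.0 and Drd3 at 0.731. In prefrontal cortex and cortex Ppp1r1b reached medians of 173 CPM (46.2 to 592) and 159 CPM (115 to 227), and it was lowest in ventral hippocampus at 49.5 CPM.

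Much of the spread within a striatal region was shared by most of the 9 genes and the 10 other markers. The listed libraries weigh heavily in this spread. Without them Drd1 in ventral striatum lay between 155 and 345 CPM and Ppp1r1b between 876 and 2623 CPM. The values that follow are for all libraries. Across the 12 ventral striatum libraries Drd1 varied 19.1-fold in CPM but 1.76-fold when divided by the summed markers, from 37 to 65.3 per 1000 marker CPM. Ppp1r1b went from 34.2-fold to 2.54-fold, Pde10a from 24.3-fold to 1.84-fold, Drd2 from 21.9-fold to 1.58-fold, Rgs9 from 13.2-fold to 1.74-fold and Gng7 from 13.1-fold to 1.96-fold. Adcy5 narrowed from 5.44-fold to 2.55-fold and Gnal from 4.33-fold to 3.62-fold. Drd3 was the exception, with a 9.24-fold spread in CPM and 9.97-fold per marker. In dorsal striatum the same division took Ppp1r1b from 26.8-fold to 1.50-fold and Drd1 from 38.7-fold to 2.77-fold, and Drd2 from 1578-fold to 89.0-fold, with the single count named above as its lowest value on both scales. Gnal changed little there, from 5.50-fold to 4.66-fold. Outside the striatum the amount per marker differed more between genes. Gng7 had a median of 1144 per 1000 marker CPM in dorsal hippocampus against 233 in dorsal striatum, and Gnal 783 against 165, while Ppp1r1b had 308 against 363. The plot of Ppp1r1b, Rgs9 and Gng7 against the markers shows the listed libraries at 334 to 3105 marker CPM, and the cluster of cortex and hippocampus libraries differing in height between the 3 genes.

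**Figure D2:**
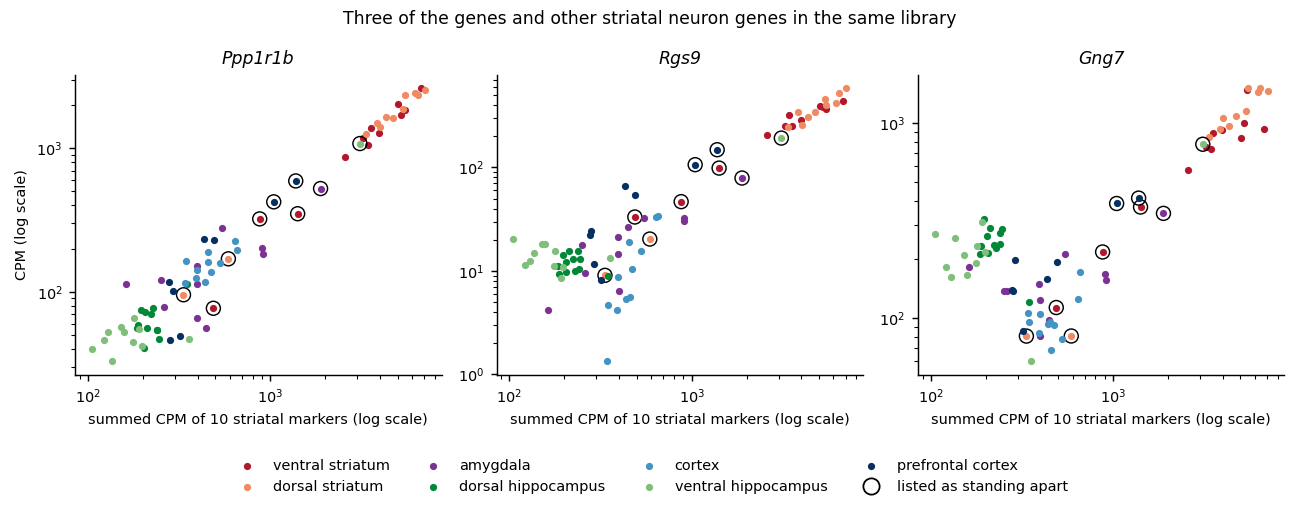
CPM of Ppp1r1b, Rgs9 and Gng7 (log scale) against the summed CPM of the 10 other striatal markers in the same library (log scale), 1 point per library, coloured by region, with the 9 listed libraries circled. Ppp1r1b keeps a median of 290 to 412 CPM per 1000 marker CPM in every region, while Gng7 has 233 in dorsal striatum and 1144 in dorsal hippocampus.

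Neighbouring regions of the same depth set were tested over all genes with edgeR (quasi-likelihood), with Benjamini-Hochberg adjustment and a threshold of 0.05. Log2 fold changes are given with their standard errors. Between ventral and dorsal striatum 1 of 9 genes differed, where 11.2% of 13599 genes did. Drd3 was higher in ventral striatum by 1.98 ± 0.45 (adjusted p = 0.00634). Its adjusted p stayed between 0.00253 and 0.0208 when each mouse was left out in turn, and the fold change was 2.04 ± 0.35 without the listed libraries. The other 8 had values between -0.55 (Gng7) and 0.07 (Gnal) with standard errors of 0.28 to 0.56, and adjusted p between 0.434 and 0.905. For Drd1 the difference was -0.31 ± 0.49, for Drd2 -0.46 ± 0.56 and for Ppp1r1b -0.47 ± 0.49, each smaller in size than its standard error. Without the listed libraries Gng7 was at -0.48 ± 0.16, a similar value with a smaller standard error.

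Against the amygdala all 9 genes were higher in ventral striatum, where 47.2% of 13707 genes differed and 24% were higher. Drd3 had the largest difference, 3.84 ± 0.49 (adjusted p = 1.81e-06), followed by Rgs9 with 3.45 ± 0.46, Drd2 with 3.14 ± 0.53, Pde10a with 3.09 ± 0.42, Drd1 with 3.07 ± 0.43 and Ppp1r1b with 2.95 ± 0.44. Gng7 (2.19 ± 0.30), Adcy5 (1.82 ± 0.27) and Gnal (1.74 ± 0.24) had the smallest differences. The median over the 9 was 3.07 and over all genes 0.02. Without the listed libraries the median over the 9 was 3.66.

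Between dorsal striatum and dorsal hippocampus all 8 genes tested were higher in striatum, where 53.5% of 13745 genes differed and 28% were higher. Drd2 differed by 5.24 ± 0.58, Drd1 by 5.05 ± 0.46, Rgs9 by 4.75 ± 0.47, Ppp1r1b by 4.63 ± 0.41 and Pde10a by 3.81 ± 0.43, with adjusted p between 5.90e-09 and 1.38e-07. Adcy5 (3.12 ± 0.30), Gng7 (2.04 ± 0.36) and Gnal (1.93 ± 0.24) again differed less. Drd3 had too few counts to enter the fit. The median over the 8 was 4.22 and over all genes 0.03.

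Amygdala and dorsal hippocampus differed in 6 of 8 genes tested, where 40.3% of 14030 genes did. Drd1 (1.67 ± 0.29), Drd2 (1.64 ± 0.48), Ppp1r1b (1.19 ± 0.28), Adcy5 (1.13 ± 0.13) and Rgs9 (0.87 ± 0.31) were higher in amygdala and Gng7 was lower (-0.71 ± 0.18, adjusted p = 0.00328). For Gnal (0.26 ± 0.16) and Pde10a (0.15 ± 0.23) the difference did not pass the test. With the mouse as a block 4 were called, as Drd2 (adjusted p = 0.0579) and Rgs9 (adjusted p = 0.0978) no longer passed. Without the 1 listed amygdala library Rgs9 did not pass.

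In the shallower set 6 of 7 genes tested were higher in prefrontal cortex than in cortex, where 41.3% of 10091 genes differed and 20.5% were higher. Rgs9 differed most, by 1.86 ± 0.39 (adjusted p = 0.000405), then Drd1 by 1.07 ± 0.41, Pde10a by 1.00 ± 0.31, Gng7 by 0.95 ± 0.21, Adcy5 by 0.73 ± 0.16 and Gnal by 0.53 ± 0.13. Ppp1r1b did not pass the test (0.21 ± 0.28), and Drd2 and Drd3 had too few counts. The fit takes the same difference between regions in both genotypes. In WT libraries mean Drd1 was 10.3 CPM in prefrontal cortex and 15.1 CPM in cortex. Pde10a had 64.9 and 74.2 CPM and Ppp1r1b 78.3 and 152 CPM, in that order. In KO libraries the means were 56.2 and 13.3 CPM for Drd1, 254 and 61.4 for Pde10a and 370 and 162 for Ppp1r1b. Mean Rgs9, Gng7, Adcy5 and Gnal were higher in prefrontal cortex in both genotypes. Without the 2 listed prefrontal libraries Rgs9 was at 1.04, Gng7 at 0.42, Adcy5 at 0.36 and Ppp1r1b at -0.46 ± 0.23, and Drd1, Pde10a and Gnal did not pass.

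Between ventral hippocampus and cortex 1 of 6 genes tested differed, where 29.8% of 9842 genes did: Gng7 was higher in ventral hippocampus by 1.21 ± 0.22 (adjusted p = 7.02e-05). Ppp1r1b was at -0.77 ± 0.45 with all libraries and at -1.76 ± 0.12 without the listed ventral hippocampus library, that of female KO mouse 6. With the mouse as a block Ppp1r1b was at -1.35 ± 0.35 (adjusted p = 0.00520) and 2 genes were called. The plot of region contrasts shows that Drd1, Drd2, Ppp1r1b, Rgs9 and Pde10a lie to the right of Adcy5, Gnal and Gng7 in both comparisons of striatum with another region.

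**Figure D3:**
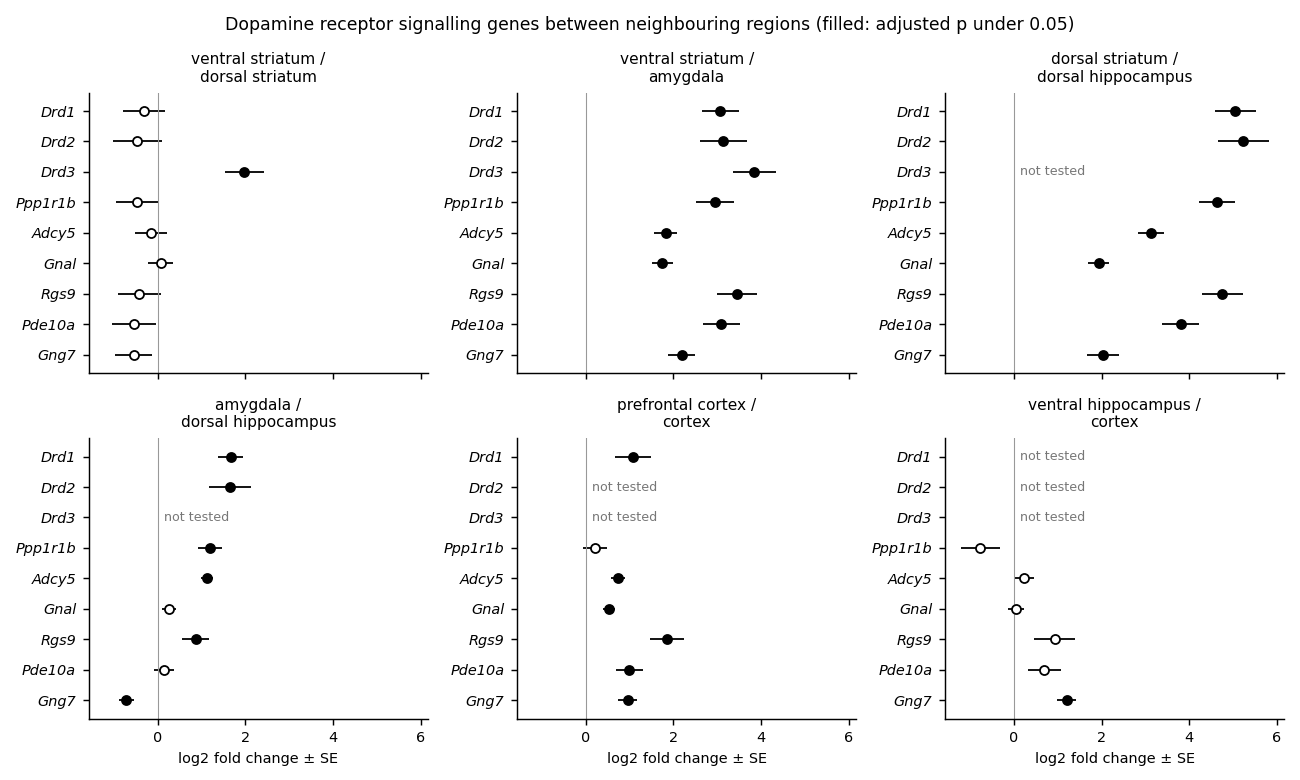
Log2 fold change ± SE of the 9 genes in 6 region comparisons, the first region named over the second; filled points have an adjusted p under 0.05 (edgeR quasi-likelihood test). Drd3 is the only filled point between ventral and dorsal striatum, at 1.98.

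The balance of Drd2 to Drd1 was then compared between the striatal regions of the same mouse, as a ratio within each library. Ventral striatum had a median of 0.630 Drd2 counts per Drd1 count (0.525 to 0.988, n = 12) and dorsal striatum 0.690 (0.0236 to 0.841, n = 12). The mean log2 ratio was higher in ventral striatum by 0.31 ± 0.41 (SE), with 4 of 12 mice higher there and a p of 0.795 in an exact two-sided permutation test over 4096 sign changes. The sign of this mean rests on the dorsal library of female WT mouse 23. In the 8 mice with neither library listed the difference was -0.12 ± 0.12, with 2 of 8 mice higher in ventral striatum and medians over all unlisted libraries of 0.627 and 0.744. Between KO and WT the mean log2 ratio in ventral striatum differed by -0.14 ± 0.14 (KO minus WT, SE, exact permutation p = 0.430, n = 12). Its SD between mice there was 0.13 in KO and 0.32 in WT. In dorsal striatum the difference was 0.78 ± 0.84 (exact permutation p = 0.6), and 0.05 ± 0.13 without the listed libraries (n = 10). Adjusted over these 3 comparisons each p was 0.795.

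**Figure D4:**
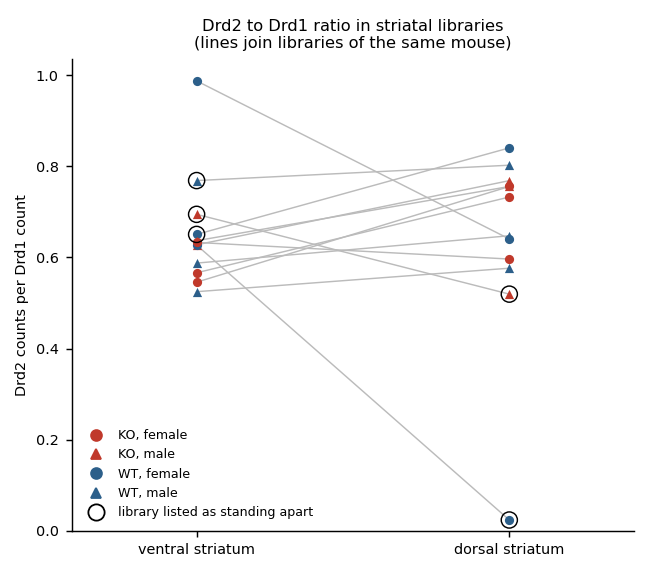
Drd2 counts per Drd1 count in the ventral and dorsal striatum library of each of 12 mice, joined by a line per mouse, coloured by genotype and shaped by sex, with listed libraries circled. Apart from the circled dorsal library at 0.0236 the ratios lie between 0.520 and 0.988 in both regions.

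Loss of ACSS2 left no called difference in any of the 9 genes in ventral striatum, dorsal striatum, amygdala, dorsal hippocampus, cortex or ventral hippocampus. Each of these fits, with sex as a covariate, called 1 gene of 9720 to 14297 tested, Acss2 itself, a share of 0.00739% in ventral striatum, 0.00723% in dorsal striatum, 0.00699% in amygdala, 0.00722% in dorsal hippocampus, 0.0103% in cortex and 0.00996% in ventral hippocampus. DESeq2 called none of the 9 in these regions either, while a fit without the low-count filter called 6 of 9 in ventral hippocampus, where it called 101 of 23674 genes, and none in the other 5. At an unadjusted p under 0.05 stood none of the 9 in ventral striatum, none of 8 in dorsal striatum, 1 of 8 in amygdala (Gng7), none of 8 in dorsal hippocampus, none of 6 in cortex and 3 of 6 in ventral hippocampus (Ppp1r1b, Adcy5 and Rgs9). Over all genes 7.31%, 1.5%, 3.32%, 2.69%, 6.7% and 5.04% stood there in the same order. The KO and WT ranges overlapped for each of the 9 in all 6 regions, where 0.406% of genes had ranges apart in ventral striatum, 0.0506% in dorsal striatum, 0.175% in amygdala, 0.0939% in dorsal hippocampus, 0.597% in cortex and 0.149% in ventral hippocampus.

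In ventral striatum Drd1 was 236 ± 109 CPM in KO (SD, n = 6; median 264, 37.9 to 345) and 162 ± 105 CPM in WT (n = 6; median 183, 18.1 to 307), a log2 fold change of 0.57 ± 0.57 (adjusted p = 0.749). Drd2 stood at 142 ± 63.3 CPM in KO mice and 116 ± 101 CPM in WT mice (0.39 ± 0.59, adjusted p = 0.835), and Ppp1r1b 1373 ± 630 and 1082 ± 901 CPM (0.43 ± 0.64, adjusted p = 0.835). All 9 genes had positive values, with a median of 0.39 against 0.00 over all genes. Without the 3 listed libraries, 2 WT and 1 KO, the median over the 9 was 0.10. The summed striatal markers had medians of 4511 CPM in KO and 2909 CPM in WT. In dorsal striatum the 8 genes tested lay between 0.06 (Gng7 and Gnal) and 0.18 (Pde10a and Rgs9), with standard errors of 0.40 to 0.86 and adjusted p of 1.00. Drd1 there stood at 240 ± 121 CPM with the deletion and 234 ± 131 CPM without it, and Drd2 at 174 ± 94.8 and 162 ± 92.7 CPM (SD, n = 6 each).

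In amygdala all 8 genes tested had positive values with a median of 0.64, and 0.36 without the listed library of female KO mouse 6. Gng7 was 194 ± 79.8 CPM in KO (n = 6) and 124 ± 33.1 CPM in WT (n = 5), a log2 fold change of 0.61 ± 0.27 with an adjusted p of 0.993. In ventral hippocampus the median over the 6 genes tested was 0.93 with all libraries and -0.08 without the listed library of the same mouse. Ppp1r1b there had medians of 49.5 CPM in KO and 49.1 CPM in WT, but means of 218 ± 422 and 50.7 ± 8.62 CPM (n = 6 each), since 1 KO library held 1079 CPM. Dorsal hippocampus and cortex, where no library was listed, had medians over the genes tested of -0.05 (8 genes) and -0.13 (6 genes). The largest value in dorsal hippocampus was that of Drd2, -0.62 ± 0.32, from 3.47 ± 1.66 CPM in KO and 5.44 ± 1.85 CPM in WT (n = 6 each, adjusted p = 1.00).

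In prefrontal cortex the groups did differ. Of 8 genes tested 4 were higher in KO, where 0.0949% of 10532 genes were called (10 genes, of which 8, or 0.076%, were higher). Rgs9 was 65.5, 148 and 54.5 CPM in the female KO libraries of mice 4, 5 and 6 and 106 CPM in that of male KO mouse 1, and 8.16, 22, 11.6 and 24.5 CPM in the WT libraries of female mice 11 and 23 and male mice 12 and 3. Every KO value was above every WT value, and the log2 fold change was 2.59 ± 0.36 (adjusted p = 0.0120). Ppp1r1b was 233, 592, 230 and 423 CPM in the KO libraries in the same order and 49.0, 116, 102 and 46.2 CPM in WT, again without overlap (2.28 ± 0.33, adjusted p = 0.0122). Drd1 was 38, 95.9, 29.3 and 61.5 CPM in KO and 4.08, 14.7, 15.9 and 6.61 CPM in WT (2.56 ± 0.44, adjusted p = 0.0320). Pde10a was 138, 479, 140 and 259 CPM in KO and 50.6, 74.6, 70.9 and 63.2 CPM in WT (2.00 ± 0.35, adjusted p = 0.0353). In all 4 genes mice 5 and 1 carried the highest values and mice 4 and 6 lay between them and WT.

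The other 4 genes did not pass. Drd2 was 11.6, 73.7, 26.9 and 46.6 CPM in KO and 0.816, 12.2, 3.18 and 0 CPM in WT, where the lowest KO value is below the highest WT value (3.45 ± 0.70, adjusted p = 0.0734). Gng7 (1.20 ± 0.26, adjusted p = 0.0899), Adcy5 (0.81 ± 0.21, adjusted p = 0.143) and Gnal (0.52 ± 0.17, adjusted p = 0.335) had smaller values. The KO and WT ranges were apart for 5 genes (Drd1, Ppp1r1b, Adcy5, Rgs9 and Pde10a), where 3.68% of all genes tested had ranges apart. Drd3 had too few counts, with 0, 0.888, 0.814 and 2.64 CPM in KO and 0, 0, 0 and 0.944 CPM in WT.

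Marker lists of several cell types differed between these groups beside the 9 genes, the other striatal markers among them. Their sum was 432 to 1381 CPM in the 4 KO libraries, with all 10 markers counted in each, and 278 to 320 CPM in the 4 WT libraries, with 8 to 10 counted. The 8 summed oligodendrocyte markers also had a higher median in KO (7385 CPM, 2501 to 11115) than in WT (2237 CPM, 1716 to 3257), while the 8 markers of cortical excitatory neurons were at 1667 to 2170 CPM in KO and 1853 to 2291 CPM in WT. The 4 summed markers of septum and hypothalamus were lower in KO without overlap (0 to 8.45 CPM, with 0 to 2 of the 4 counted) than in WT (9.79 to 31 CPM, with 1 to 3 counted). Those of midbrain dopamine neurons had a median of 18.7 CPM in KO (13.2 to 21.2) and 39.8 CPM in WT (13.5 to 93.4). Without the 2 listed KO libraries 0 of the 9 genes were called, with 2 genes called of 10816 and 639 genes at an unadjusted p under 0.05. Rgs9 was then at 2.06 ± 0.42, Drd1 at 1.93 ± 0.53, Ppp1r1b at 1.51 ± 0.37 and Pde10a at 1.16 ± 0.23. This fit takes out the highest KO libraries of these genes and is no test of the calls. It keeps the WT library of mouse 11, the lowest for Rgs9, Drd1 and Pde10a. With the log2 marker sum as a covariate 0 of the 9 were called, with 0 genes called of 10532 and 492 at an unadjusted p under 0.05. Rgs9 was at 1.45 ± 0.45 and Pde10a at 0.37 ± 0.30, and Adcy5 (-0.16 ± 0.22) and Gnal (-0.15 ± 0.22) turned negative. Since the marker sum separates KO from WT without overlap, covariate and genotype can hardly be told apart in these libraries. The loss of calls in this fit, that of Acss2 included, is therefore no test of them either. DESeq2's Wald test called 4 of the 9, and the share of all genes it called is not given here. Leaving out each mouse in turn called between 1 gene (without male KO mouse 1) and 5, with 2 called without female WT mouse 11. Without female WT mouse 23, whose library went against its sex label, 5 were called. The part of oligodendrocyte, septal, hypothalamic and midbrain content in the result was not tested. The plot of prefrontal libraries sets the 9 genes beside the marker sum.

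**Figure D5:**
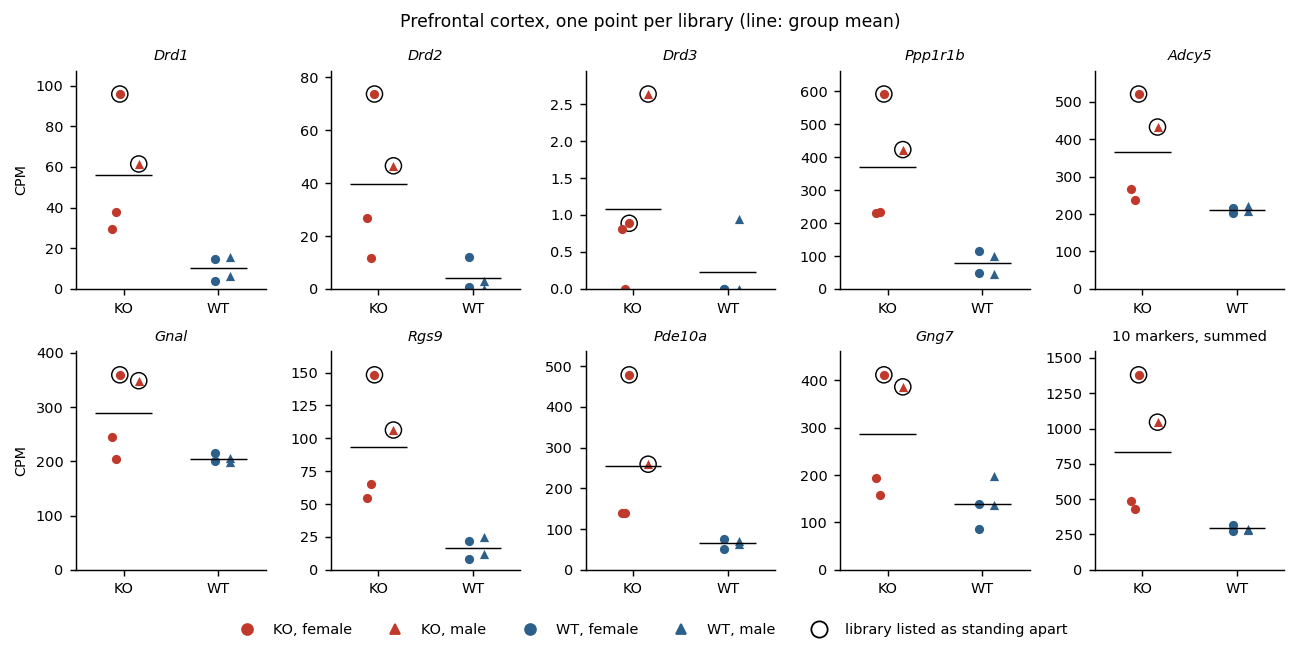
CPM of the 9 genes and of the 10 summed striatal markers in the 4 KO and 4 WT prefrontal cortex libraries, 1 point per library, with a line at the group mean and the 2 listed libraries circled; axes are linear and start at 0. The circled KO libraries are the highest in every panel except Drd3, and the other KO libraries lie nearer to WT.

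Split by sex, the prefrontal cortex libraries labelled female (3 KO against 2 WT) had 2 of 8 genes called, where 0.452% of 11056 genes were: Rgs9 (2.65 ± 0.49, adjusted p = 0.0281) and Ppp1r1b (2.12 ± 0.42, adjusted p = 0.0410). Of the 2 WT libraries, that of mouse 23 had Xist at 0 and Ddx3y at 60 counts, against its female label. The fit is therefore a comparison of females by label only. DESeq2 called none of the 9, and leaving out 1 mouse at a time called between 0 (without female WT mouse 11 or female KO mouse 5) and 6 (without female WT mouse 23). Male prefrontal cortex had 1 KO library and no test of its own. In the other 6 regions none of the 9 was called in males or in females with the low-count filter (without it 1 of 9 in male and 8 of 8 in female ventral hippocampus), where 0 to 4 genes were called of 9719 to 14748 tested. The shares in males were 0% in both striatal regions, 0.00706% in amygdala, 0.00721% in dorsal hippocampus, 0.0103% in cortex and 0.00996% in ventral hippocampus, and in females 0% in both striatal regions and amygdala, 0.00707% in dorsal hippocampus, 0.0398% in cortex and 0.00993% in ventral hippocampus. At an unadjusted p under 0.05 the female ventral hippocampus had 6 of 6 genes, all positive, where 3.93% of genes stood, with the listed library of KO mouse 6 among its 3 KO libraries.

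None of the 9 genes was called between males and females in the 6 regions fitted. The fits called 5 to 10 genes each, a share of 0.0369% in ventral striatum, 0.0434% in dorsal striatum, 0.0699% in amygdala, 0.0361% in dorsal hippocampus, 0.0926% in cortex and 0.0498% in ventral hippocampus. The lowest adjusted p among the 9 was 0.182, for Ppp1r1b in amygdala (male minus female -1.14 ± 0.38, unadjusted p = 0.0116). At an unadjusted p under 0.05 stood 1 of the 9 in amygdala, 2 in cortex (Pde10a and Gng7), 3 in ventral hippocampus (Ppp1r1b, Adcy5 and Rgs9) and none in the other 3 regions, beside 2520, 344 and 416 of all genes tested in those 3 regions. DESeq2 called none of the 9 either, while without the low-count filter 7 of 9 were called in ventral hippocampus, beside 132 of 23674 genes. The difference between the sexes in the effect of the deletion was tested as an interaction in the same 6 regions, and none of the 9 was called, where 0% of 10555 to 15227 genes were. Without the filter 7 of 9 were called in ventral hippocampus, beside 117 of 23674 genes. At an unadjusted p under 0.05 stood 3 of 7 in cortex and 2 of 7 in ventral hippocampus, beside 571 and 714 of all genes. The lowest adjusted p was 0.720, for Gng7 and Gnal in ventral hippocampus (-1.97 ± 0.61 and -1.23 ± 0.52, males minus females), again with the listed female KO library in the fit.

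A list of 49 other genes of dopamine supply, receptors on cAMP, G proteins, regulators, protein kinase A, phosphodiesterases and the surroundings of DARPP-32 gives the wider pathway. Some of its genes, Adora2a among them, are also striatal markers. Between ventral and dorsal striatum 5 of 47 listed genes tested were higher and 4 lower, with a median of -0.06, where 11.2% of all genes were called. Against the amygdala 25 of 47 were higher in ventral striatum and 8 lower, and against dorsal hippocampus 28 of 46 were higher in dorsal striatum and 7 lower, where 47.2% and 53.5% of all genes were called. Amygdala over dorsal hippocampus had 24 of 47 higher and 6 lower, where 40.3% of all genes were called. By role, the phosphodiesterases Pde1b, Pde2a, Pde4b and Pde7b had 4 of 4 higher in ventral striatum than in amygdala with a median of 1.92, and the 9 broadly expressed G-protein genes 2 higher and 3 lower with a median of -0.10. In the shallower set the list had 5 of 39 higher and 12 lower in prefrontal cortex than in cortex, and 3 of 39 higher and 12 lower in ventral hippocampus than in cortex, where 41.3% and 29.8% of all genes were called.

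KO against WT called 0 of the listed genes in 6 regions, where Acss2 was the only gene called. At an unadjusted p under 0.05 stood 0 of 47 in ventral striatum (7.31% of all genes), 1 of 46 in dorsal striatum (1.5%) and 0 of 47 in amygdala (3.32%). Dorsal hippocampus had 3 of 45 there (2.69%), cortex 4 of 39 (6.7%) and ventral hippocampus 4 of 39 (5.04%). In prefrontal cortex 1 of 42 was called, where 0.0949% of all genes were. Adora2a, the adenosine receptor of D2 neurons, was higher in KO by 3.09 ± 0.45 (adjusted p = 0.0122). It is also 1 of the 10 striatal markers. With the marker covariate the value was 1.69 ± 0.50 and did not pass (edgeR adjusted p = 0.990). The marker sum holds Adora2a itself and separates KO from WT here, so that fit is no test of the call. Without the listed libraries the value was 2.03 ± 0.50. Genes of dopamine supply such as Th and Slc6a3 had too few prefrontal counts to be tested.

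Over the 28 group means of log2(CPM + 1), the genes most like each of the 9 among 14939 genes were given as a description, since group means share mice and dissections. The 9 themselves were left out of this ranking. Cd4 was nearest to Drd1 (Pearson r = 0.978), Drd2 (0.960) and Ppp1r1b (0.986) and next to nearest to Rgs9 (0.977), and Gpr6 was second for Drd1 (0.975) and Drd2 (0.958). Syndig1l was nearest to Rgs9 (0.978) and Pde10a (0.985), with Strn second for Pde10a (0.981) and Sh3rf2 second for Ppp1r1b (0.976). Pde1b (0.987) and Ppp1r7 (0.971) were nearest to Gnal, Serpina9 (0.973) and Rarb (0.971) to Adcy5, and Smpd3 (0.962) and Kcnab1 (0.953) to Gng7. Drd3 had the least close neighbours, AI606473 and Ntn1, both at 0.916. Within the 9, Drd1 and Ppp1r1b had r = 0.987, Rgs9 and Pde10a 0.981, Drd1 and Adcy5 0.978 and Drd2 and Rgs9 0.970. Drd1 and Drd2 had 0.948 and Drd1 and Drd3 0.783. For Drd1, Drd2, Ppp1r1b, Adcy5 and Rgs9 a gene of the 9 was thus closer than the nearest gene named above.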

How the data were processed

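Poly(A) RNA was prepared from 300 ng of total RNA per sample, and the authors deposited raw counts per gene symbol in 1 table per sex, per the file headers and the labels. The submitters' processing notes name STAR 2.5.2a, SAMtools 1.1, HTSeq 0.6.1, DESeq2, R 4.0.2 and the builds GRCm38 and mm10, without their order. CPM were computed here from column totals. Counts were tested with edgeR 4.0.16 (quasi-likelihood, TMM scaling, filterByExpr with a minimum count of 10 and a minimum total of 15) in R 4.3.3, with Benjamini-Hochberg adjustment over all genes tested. Region fits had the sex and genotype group as covariate and KO against WT fits had sex. Alternatives were DESeq2 1.42.0 and its size factors, no filter, the mouse as a block and leaving out each mouse, and, chosen after seeing the data, leaving out the listed libraries and a striatal marker covariate.

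The same numbered mouse gave libraries of several regions, per the labels, so mouse numbers pair regions. The deviations of a mouse's ventral and dorsal striatum libraries from their group means had a mean correlation of 0.153 (-0.121 to 0.510). In data simulated for KO against WT in prefrontal cortex, the test recovered 64 of 100 genes changed by a log2 of 1 and 100 of 100 changed by 2, with 7 false calls among 10532 genes. Each gene was drawn independently there, so no simulated library holds a shift in cell content or dissection shared by many genes. The number of false calls holds for that setting only. None of 73 pairs of libraries of the same group was identical. The labels number mice, so by label the libraries of a group are separate animals. For the prefrontal cortex library labelled female WT mouse 23, with Ddx3y above Xist, the label does not settle the animal. The number of founder lines is not given in the sources used here.

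The 9 genes, the marker and pathway lists and the tests were chosen with earlier results of these data known. Genes named are the 9, the 2 others most like each by Pearson correlation (genes outside the 9 with a mean of at least 1 CPM), pathway genes called between KO and WT, and the markers. Protein sequences were not used here. Of the lists, 1 gene is not reported here.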

Additional observations from a re-analysis of the deposited data

How the results depend on the processing

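Depth limits Drd3 in single libraries outside the striatum and Drd1 and Drd2 in the shallower regions, where they did not enter all fits. With DESeq2's size factors no count of the 9 genes called moved by over 1.5 times. DESeq2's Wald test moved 1 count, female KO against WT in prefrontal cortex, to 0. The replicate block (mouse) moved 1 count, ventral hippocampus against cortex, to 2, and Drd2 and Rgs9 lost their call between amygdala and dorsal hippocampus. Fits of KO against WT and of the sexes have 1 library per mouse and no block. The share of all genes called is not given here for the fits with DESeq2, its size factors or the block.

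Without the low-count filter the counts were 5 (ventral hippocampus against cortex, beside 3306 of 25886 genes), 8 (KO against WT, prefrontal cortex, 367 of 23179), 7 (the same in females, 373 of 21743), 6 (KO against WT, ventral hippocampus, 101 of 23674), 7 (male against female there, 132), 7 (the interaction there, 117), 8 (female KO against WT there, 85 of 21331) and 1 (male KO against WT there, 161 of 21446). The cause was not tested.

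Without the listed libraries, which the 9 genes' own values chose, 2 were called between ventral and dorsal striatum, 3 between prefrontal cortex and cortex, 2 between ventral hippocampus and cortex, and 0 between KO and WT in prefrontal cortex, in both sexes and in females. Apart from KO against WT in prefrontal cortex with both sexes, the share of all genes called in these fits is not given here. Reversed were Pde10a between amygdala and dorsal hippocampus (-0.044), Ppp1r1b between prefrontal cortex and cortex (-0.46), Adcy5 (-0.050) and Gnal (-0.17) between ventral hippocampus and cortex, and the Drd2 to Drd1 ratio between ventral and dorsal striatum (-0.12).

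With the striatal marker covariate, which nearly coincides with region where a striatal and another region are compared, the counts were 2 (ventral against dorsal striatum), 2 (ventral striatum against amygdala), 4 (dorsal striatum against dorsal hippocampus), 3 (amygdala against dorsal hippocampus), 5 (ventral hippocampus against cortex) and 0 (KO against WT, prefrontal cortex). For the region comparisons the share of all genes called with this covariate is not given here. Those counts can therefore not be set against it. Between ventral and dorsal striatum Drd1 (0.12), Drd2 (0.17), Adcy5 (0.13) and Rgs9 (0.13) reversed. Between dorsal striatum and dorsal hippocampus all 8 did: Drd1 (-0.15), Drd2 (-1.90), Ppp1r1b (-7.03e-05), Adcy5 (-0.079), Gnal (-0.42), Rgs9 (-0.99), Pde10a (-1.12) and Gng7 (-2.36). Between amygdala and dorsal hippocampus Drd2 (-0.24), Gnal (-0.19), Rgs9 (-0.38) and Pde10a (-0.33) reversed, and between prefrontal cortex and cortex Ppp1r1b (-0.016). Between KO and WT Drd2 in ventral striatum (-0.11), Drd1 (-0.22), Drd2 (-0.076) and Ppp1r1b (-0.057) in dorsal striatum and Adcy5 (-0.16) and Gnal (-0.15) in prefrontal cortex reversed.

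Leaving out each mouse in turn gave counts of 1 to 2 (ventral hippocampus against cortex), 1 to 5 (KO against WT, prefrontal cortex), 0 to 6 (the same in females) and 0 to 2 (female KO against WT, dorsal hippocampus). For these fits too the share of all genes called is not given. The fold changes whose sign turned in some of these fits ranged from -0.033 to 0.18 (Gnal, ventral against dorsal striatum), -0.029 to 0.27 (Pde10a, amygdala against dorsal hippocampus) and -0.11 to 0.41 (Ppp1r1b, prefrontal cortex against cortex). Between ventral hippocampus and cortex they ranged from -0.051 to 0.34 (Adcy5), -0.14 to 0.20 (Gnal), -0.012 to 1.29 (Rgs9) and -0.0018 to 0.97 (Pde10a). Between KO and WT in dorsal striatum they ranged from -0.22 to 0.38 (Drd1), -0.15 to 0.44 (Drd2) and -0.11 to 0.43 (Ppp1r1b). The ratio ranged from -0.087 to 0.39 between ventral and dorsal striatum and from -0.041 to 1.25 between KO and WT in dorsal striatum.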
